A study of Mus musculus with 19 samples.

Results

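The circadian clock genes described here are 10 transcripts of the mouse clock, Arntl, Clock, Npas2, Per1, Per2, Per3, Cry1, Dbp, Nr1d1 and Nr1d2, out of 12393 genes with a probe set that carries a single gene symbol. They were taken from a fixed list of names, and for each gene the probe set with the highest mean over all 19 arrays was used. The samples were tibialis anterior muscles of 129/SVE mice, with 5 arrays of adult desmin knockout muscle (KO_Adult), 4 of aged desmin knockout muscle (KO_Aged), 5 of aged wild-type muscle (WT_Aged) and 5 of adult wild-type muscle (WT_Adult). Adult mice were 7 to 9 weeks old and aged mice 12 to 14 months old. Knockout mice lacked desmin, the muscle intermediate filament protein encoded by Des. Every muscle, wild-type ones included, had performed 50 eccentric contractions, in which the active muscle is stretched, 12 h before RNA isolation. No unexercised muscle was analysed here, and the sources used here do not give the hour of day at which tissue was taken. Nothing in the labels assigns each array to its own mouse, and p-values therefore reflect array-to-array spread, part of which may be technical.

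In the mammalian clock, the proteins of Arntl (also called Bmal1) and Clock bind as a pair to E-box sequences and switch on the Per, Cry, Nr1d1, Nr1d2 and Dbp genes. The Per and Cry proteins accumulate and shut their own activators off, while the receptors of Nr1d1 and Nr1d2 (REV-ERB alpha and beta) repress Arntl through ROR elements, so that Arntl peaks when its repressors are low. The loop runs in skeletal muscle cells as well as in the brain, and a single muscle sample catches it at 1 phase. Per1 and Per2 are in addition quick-response genes that CREB and the glucocorticoid receptor can induce outside the daily cycle. Because several of these transcripts swing widely within a day, the values are given array by array.

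Sequences that feed this loop were looked up in the RefSeq promoters of mouse build GRCm38.p6, which run from 250 bases before to 50 bases after each start. Of the 10 genes, 9 had an entry, with 13 starts in all, and Per2 had none. The motifs searched on both strands were the E-box CACGTG, its E-prime form CACGTT, the D-box TTANNTAA (bound by DBP and its relatives), the ROR element as TAGGTCA or TGGGTCA, and the CRE core site TGACGT (bound by CREB). Matches stood in 5 of the 9 genes, and no matches overlapped each other. The share of all promoters with any of these motifs was not counted. The stretches with matches are printed 5′ to 3′ on the gene's strand, to show which motif letters stand near which start, with the motif in capitals.

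Arntl, second start, chr7:113207531-113207557, plus strand: aggcagaaagTAGGTCAgggacggagg
Per1, first start, chr11:69098753-69098818, plus strand: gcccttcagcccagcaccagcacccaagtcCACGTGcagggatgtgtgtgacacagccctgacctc
Per1, second start, chr11:69099990-69100055, plus strand: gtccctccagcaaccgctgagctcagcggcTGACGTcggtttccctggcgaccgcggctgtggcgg
Per3, chr4:151044786-151044900, minus strand: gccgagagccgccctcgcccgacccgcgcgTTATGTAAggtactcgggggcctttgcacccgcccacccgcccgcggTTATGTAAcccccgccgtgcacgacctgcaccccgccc
Cry1, chr10:85185079-85185163, minus strand: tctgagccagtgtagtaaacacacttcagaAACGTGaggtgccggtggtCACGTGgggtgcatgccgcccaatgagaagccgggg
Nr1d1, chr11:98775370-98775435, minus strand: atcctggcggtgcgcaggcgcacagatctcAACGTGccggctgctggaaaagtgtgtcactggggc

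The ROR element of Arntl lay at base 31 after its second start. Per1 carried an E-box 166 bases before its first start and a CRE core site 132 bases before its second. Cry1 had an E-box at 60 and an E-prime box at 79 bases before its start, and Nr1d1 had an E-prime box at 28 bases before its start. The E-prime boxes of Cry1 and Nr1d1 are read on the opposite strand and therefore print as AACGTG. Per3 held a pair of D-boxes with the same 8 letters, at 205 and 158 bases before its start. Over all 32851 promoters in the table the E-box was found in 7.15%, the E-prime box in 4.68%, the D-box in 6.0%, the CRE core site in 7.51%, TAGGTCA in 2.61% and TGGGTCA in 3.98%. A match describes letters in these windows and does not show binding, and the longer regulatory regions of these genes were not searched.

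**Figure D1:**
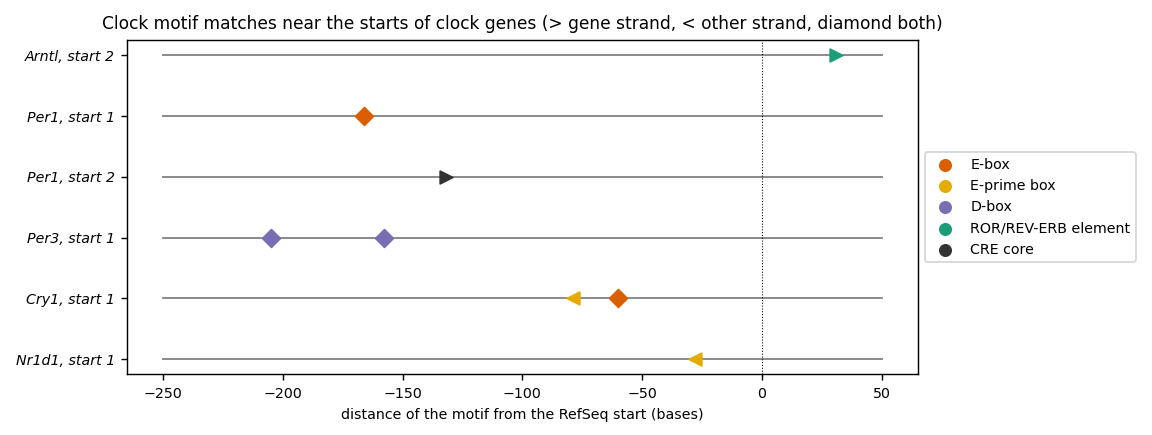
Position of each motif match along the promoters of Arntl, Per1, Per3, Cry1 and Nr1d1 that held one. The horizontal axis is the distance in bases from the RefSeq start (dotted line); right-pointing marks lie on the gene's strand, left-pointing marks on the other strand, and diamonds are matches whose search pattern reads the same on both strands; Per3 shows its D-boxes at 205 and 158 bases before the start.

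Features of the arrays bear on these genes and were examined before the comparisons. Des itself read 311 to 879 intensity units in KO_Adult and 72.7 to 636 in KO_Aged muscle, against 13700 to 22313 in WT_Adult and 10749 to 12736 in WT_Aged muscle, so every array matched its genotype label. A poly-A spike-in control (dap) read 1003 to 2421 on 8 arrays, the 5 of WT_Aged muscle and replicates 3, 4 and 5 of KO_Adult muscle, and at most 29.7 on the remaining 11. A probe set for the middle of 18S ribosomal RNA followed the same split, at 5835 to 19660 on those 8 arrays and at most 181 on the other 11, so the arrays differ in more than the spike-in. KO_Aged replicates 2 and 3 had Gapdh 3′ to 5′ ratios of 8.61 and 5.01, against 0.766 to 0.968 on the other 17 arrays. The first principal component of the remaining tested genes held 38.8% of their variance. Its largest gap left 7 arrays below, namely KO_Adult replicates 1 and 2, KO_Aged replicates 2 and 3 and WT_Adult replicates 1, 2 and 3, and 12 arrays above. The skeletal muscle markers Ckm (18390 to 42350) and Acta1 (17850 to 40950) were bright on every array. The slow-fibre genes of that list ranged widely, Tnnt1 from 39.0 to 3108 and Myh7 from 11.3 to 2839.

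The main test was 1 limma model over all 19 arrays and 7436 genes, with Benjamini-Hochberg adjusted p under 0.05 as the limit for a call. Of the 10 clock genes 9 entered it. Npas2 was too dim, ranking 9067 of 12393 genes by mean level. Differences are on the log2(intensity + 4.76) scale after quantile normalization, which understates the change of dim genes, while the array values are the deposited intensities.

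Between the genotypes in adult muscle, Nr1d1 fell and no other tested clock gene passed the limit. That is 0 genes higher and 1 lower of 9, beside 7.32% higher and 9.37% lower among all tested genes. In aged muscle Dbp was higher in the knockout and Per1 and Per2 were lower, or 1 higher and 2 lower of 9, beside 16.9% and 12.5% of all tested genes. Between ages in wild-type muscle Clock, Per1 and Per2 were higher and Nr1d1 lower in aged muscle, or 3 higher and 1 lower of 9, beside 18.1% and 20.8%. Between ages in knockout muscle no clock gene passed, beside 3.68% higher and 3.75% lower among all tested genes. At an unadjusted p under 0.05, 2 of the 9 genes in that comparison, Dbp and Nr1d1, stood with 1733 of all tested genes. The genotype by age interaction, the KO minus WT difference in aged muscle less that in adult muscle, was positive for Dbp and Nr1d1 and negative for Per1 and Per2, or 2 and 2 of 9, beside 14.3% and 10.8%.

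With 9 genes, these shares are too coarse to set the clock genes apart from the background. The median log2 difference of the 9 clock genes was 0.39 against a median of 0.04 over all tested genes for KO_Adult minus WT_Adult, and -0.33 against 0.07 for KO_Aged minus WT_Aged. It was 0.87 against -0.03 for WT_Aged minus WT_Adult, -0.26 against 0.03 for KO_Aged minus KO_Adult, and -1.09 against 0.03 for the interaction. The comparisons share groups of arrays and are not independent of each other. The split of all calls into higher and lower depended on the scaling between arrays, and for KO_Adult minus WT_Adult it was 544 and 697 under quantile normalization, 916 and 368 under median centring, and 421 and 996 with no normalization. For WT_Aged minus WT_Adult the main split was 1346 higher and 1545 lower, and 1621 and 1016 under median centring. For KO_Aged minus KO_Adult it was 274 and 279, against 166 and 301 under median centring and 477 and 227 with no normalization. For the interaction it was 1060 and 804, against 625 and 1087 under median centring and 1480 and 602 with no normalization. Median centring moved the median of all tested genes to 0.20 for KO_Adult minus WT_Adult, 0.08 for WT_Aged minus WT_Adult and -0.14 for the interaction, and no normalization moved the last to 0.17. The called clock genes kept their direction under both scalings, but Clock for WT_Aged minus WT_Adult was not called with no normalization (adjusted p = 0.0551), nor was the Dbp interaction under median centring (adjusted p = 0.0989).

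**Figure D2:**
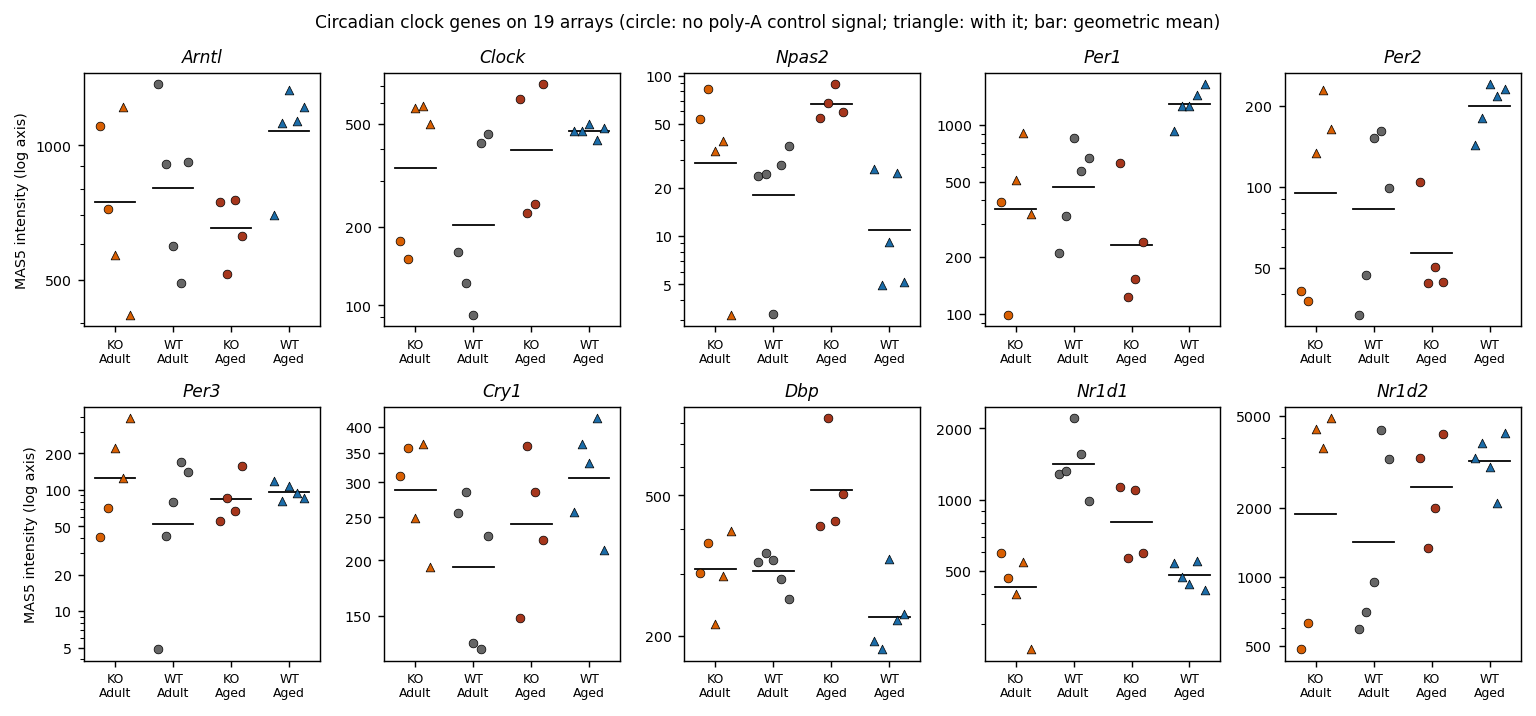
Deposited MAS5 intensity of the 10 clock genes on each of the 19 arrays, on a log axis, with 1 panel per gene and a bar at the geometric mean of each group. Triangles are arrays with the poly-A control signal and circles are arrays without it. The 5 WT_Adult arrays of Nr1d1 (989 to 2210) lie above all 5 KO_Adult arrays (235 to 595) and all 5 WT_Aged arrays (417 to 553), while Clock and Nr1d2 split within KO_Adult, KO_Aged and WT_Adult.

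Nr1d1 (entrez 217166, probe set 1426464_at, chr11:98767932-98775377) encodes the heme-binding receptor that represses Arntl. KO_Adult muscles read 595, 470, 399, 546 and 235, against 1281, 1325, 2210, 1555 and 989 in WT_Adult muscles. KO_Aged muscles read 1136, 569, 1097 and 594, against 541, 471, 441, 553 and 417 in WT_Aged muscles. The adult wild-type group therefore stood above the other 3 groups, overlapping KO_Aged alone, whose arrays divided into a high pair (replicates 1 and 3) and a pair just above the aged wild-type range. In order of mean level the groups ran WT_Adult (1472 ± 459), KO_Aged (849 ± 309), WT_Aged (485 ± 60.1) and KO_Adult (449 ± 141; SD, n = 5, 4, 5 and 5). The lowest neighbours in that order overlapped in their array values.

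Nr1d1 was 3.20-fold lower in KO_Adult than in WT_Adult muscle (log2 difference -1.68 ± 0.26 SE, limma adjusted p = 0.000377) and 2.93-fold lower in WT_Aged than in WT_Adult muscle (-1.55 ± 0.26, adjusted p = 0.000358). In aged muscle the genotype difference was 0.68 ± 0.28, with adjusted p = 0.069 although the groups did not overlap. Between KO_Aged and KO_Adult it was 0.81 ± 0.28 (adjusted p = 0.0777). With array weights both were called (0.66 and 0.92, limma adjusted p = 0.034 and 0.0206). The interaction was 2.36 ± 0.38 (adjusted p = 0.000423), and it is the largest in absolute size among the 9 tested clock genes. The call in adult muscle held with the poly-A signal as a term (-1.35, adjusted p = 0.0236) and missed the limit on the arrays without that signal (-1.35, adjusted p = 0.086), of which only 2 are KO_Adult arrays. With the term, the age difference in wild-type muscle (-1.0, adjusted p = 0.31) and the interaction (1.48, adjusted p = 0.292) were no longer called. On the 12 arrays above the gap in the first component, the values for Nr1d1 were -1.70 for KO_Adult minus WT_Adult (adjusted p = 0.00556), -1.35 for WT_Aged minus WT_Adult (adjusted p = 0.00854) and 2.37 for the interaction (adjusted p = 0.00356). Above the gap, WT_Adult and KO_Aged had 2 arrays each, all without the poly-A signal, and every KO_Adult and WT_Aged array had it. These comparisons therefore cannot be told apart from the poly-A split on those arrays, for Nr1d1 or for the genes below.

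For every comparison with WT_Aged muscle, the poly-A term is estimated through KO_Adult alone, where 3 arrays had the signal and 2 did not, because all WT_Aged arrays and no WT_Adult or KO_Aged array had it. No within-split value for those comparisons exists, so age, genotype and the split cannot be told apart there without KO_Adult. In whole muscle, fewer cells of a type and less RNA per cell cannot be told apart either. Nr1d1 was called lower in KO_Adult and in WT_Aged than in WT_Adult muscle. Of 12 endothelial markers 10 were lower in KO_Adult than in WT_Adult muscle (Tie1 -1.98, Sox18 -1.45, Aqp1 -1.32), and 6 were lower and 1 higher in WT_Aged than in WT_Adult muscle. Their summed intensity was 6860 to 10217 in KO_Adult and 10990 to 12908 in WT_Aged muscle, against 17396 to 22036 in WT_Adult muscle, and none of the 12 was at 0 on any array. Smooth muscle markers were lower in both comparisons as well, 3 of 6 in each, with Tagln at -1.24 in adult muscle and -0.94 between wild-type ages and Smtn at -0.94 and -1.54. Of 7 fibroblast markers 1 was lower in KO_Adult than in WT_Adult muscle, Col1a1 (-2.66), and none higher, with a list median of 0.08. Between wild-type ages 3 of the 7 were lower, Col1a1 (-4.78) among them. Of 3 tested erythroid markers 1 was lower in KO_Adult than in WT_Adult muscle, Alas2 (-2.25), while 2 were higher in WT_Aged than in WT_Adult muscle. In KO_Adult against WT_Adult muscle 1 of 11 skeletal muscle markers, Tnnt1 (1.58), and 1 of 10 macrophage markers, Ctss (1.08), were higher. None of either list was called lower there. In KO_Aged against WT_Aged muscle, where Nr1d1 was 0.68 and not called, 6 of 12 endothelial markers were lower and 1 higher. Between knockout ages, where Nr1d1 was 0.81 and not called, no endothelial marker was called. The part of these cell types in the Nr1d1 result was not tested. Among all tested genes 7.32% were higher and 9.37% lower in KO_Adult than in WT_Adult muscle. The shares were 18.1% and 20.8% for WT_Aged minus WT_Adult, 16.9% and 12.5% for KO_Aged minus WT_Aged, and 3.68% and 3.75% between knockout ages.

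Nr1d2 (entrez 353187, 1416958_at, chr14:18204056-18239106), the beta form of the receptor, was the brightest of the 10, with a mean of 2690. KO_Adult muscles read 486, 631, 4382, 3626 and 4898, against 594, 704, 948, 4373 and 3246 in WT_Adult muscles. KO_Aged muscles read 3282, 1338, 1989 and 4199, against 3292, 3809, 3001, 2102 and 4209 in WT_Aged muscles. Both adult groups held low and high arrays, with nothing between 631 and 3626 in KO_Adult or between 948 and 3246 in WT_Adult. The low arrays were those below the gap in the first component, where Nr1d2 read 486 to 1989 on 7 arrays, against 2102 to 4898 on the 12 arrays above it. None of its 5 comparisons was called, with differences between -0.33 and 1.11 in the pairwise ones and an interaction of -0.72 ± 0.96. With array weights in the limma fit 3 were called, KO_Adult minus WT_Adult (2.06, adjusted p = 0.00115), WT_Aged minus WT_Adult (1.94, adjusted p = 0.000399) and the interaction (-2.25, adjusted p = 0.00899).

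A second, dim Nr1d2 probe set (1416959_at, mean 73.0) ran the opposite way between genotypes at both ages and between wild-type ages. It averaged 106 ± 94.6 in KO_Aged muscle (n = 4) against 6.80 ± 8.90 in WT_Aged muscle (n = 5), and 24.6 ± 19.8 in KO_Adult against 161 ± 146 in WT_Adult muscle (SD, n = 5 each). In a fit of single probe sets, it was called higher in KO_Aged than WT_Aged muscle (2.75 ± 0.80, limma adjusted p = 0.0248) and lower in WT_Aged than WT_Adult muscle (-3.25 ± 0.75, adjusted p = 0.00589), with an interaction of 4.72 ± 1.09 (adjusted p = 0.00841). Its order of groups was that of Nr1d1 in being highest in WT_Adult and next in KO_Aged. The dim probe set read 1.85 to 26.5 on the 8 arrays with the poly-A signal and 15.5 to 331 on the 11 without it. The fit of single probe sets had no poly-A term, and its calls here all involve WT_Aged muscle. No single direction can be given for Nr1d2 from these probe sets.

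The period genes Per1 and Per2, whose proteins carry the negative feedback, had their highest levels in aged wild-type muscle. Per1 (entrez 18626, 1449851_at, chr11:69095108-69109965) read 631, 123, 153 and 241 in KO_Aged muscles, against 937, 1265, 1258, 1443 and 1649 in WT_Aged muscles. KO_Adult muscles read 394, 98.9, 510, 906 and 341, against 209, 331, 851, 571 and 668 in WT_Adult muscles. All 5 aged wild-type arrays lay above every other array, and the adult genotypes overlapped almost fully.

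Per1 was 5.41-fold lower in KO_Aged than in WT_Aged muscle (-2.44 ± 0.52, limma adjusted p = 0.00192) and 2.76-fold higher in WT_Aged than in WT_Adult muscle (1.46 ± 0.49, adjusted p = 0.0247). Its interaction was -2.13 ± 0.71 (adjusted p = 0.035). The age call ended without WT_Adult replicate 1 or 2 or WT_Aged replicate 5 (adjusted p up to 0.0728). The interaction call ended without any one of WT_Adult 1 or 2, WT_Aged 2, 4 or 5, KO_Adult 3 or 4, or KO_Aged 2, 3 or 4 (adjusted p up to 0.0766). In adult muscle the genotype difference was -0.30, with a 95% interval of -1.32 to 0.72. A fit without the pair of KO_Aged arrays with high Gapdh ratios kept 2 KO_Aged arrays. It called 1068 of all tested genes between the aged genotypes, against 2190 in the main fit. The aged genotype difference in Per1 was then -1.82 (adjusted p = 0.0631) and the interaction -1.52 (adjusted p = 0.205). With the poly-A term it was -1.07 (adjusted p = 0.416), the age difference in wild-type muscle was 0.10 (adjusted p = 0.962) and the interaction was 0.05 (adjusted p = 0.986), so the interaction changed sign. On the 12 arrays above the gap the 3 values were -1.83, 1.12 and -1.73 (adjusted p = 0.00586, 0.0467 and 0.0423).

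Per2 (entrez 18627, 1417602_at, chr1:91415977-91459351) was dimmer and moved likewise. KO_Aged muscles read 104, 44.0, 50.4 and 44.4, against 144, 181, 241, 218 and 232 in WT_Aged muscles. KO_Adult muscles read 40.9, 37.7, 134, 229 and 165, against 33.4, 47.1, 152, 162 and 99.1 in WT_Adult muscles. The aged genotypes did not overlap, while each adult group held low arrays as well as arrays within the aged wild-type range. Per2 was 3.55-fold lower in KO_Aged than in WT_Aged muscle (-1.83 ± 0.50, limma adjusted p = 0.0107) and 2.59-fold higher in WT_Aged than in WT_Adult muscle (1.38 ± 0.47, adjusted p = 0.0283), with an interaction of -2.24 ± 0.69 (adjusted p = 0.0242). Without WT_Adult replicate 1 or 2 or WT_Aged replicate 3 or 5 the age difference was not called (adjusted p up to 0.0821).

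Without the pair of KO_Aged arrays with high Gapdh ratios, 2 KO_Aged arrays remained. Neither the aged genotype difference in Per2 (-1.73, adjusted p = 0.0896) nor its interaction (-2.15, adjusted p = 0.093) was then called. On the arrays above the gap the age difference was 0.96 (adjusted p = 0.0537). With array weights Per2 was called higher in KO_Adult than in WT_Adult muscle (1.48, adjusted p = 0.00295) and lower in KO_Aged than in KO_Adult muscle (-1.5, adjusted p = 0.0255). With the poly-A term all 3 Per2 values changed sign, to 0.23, -0.68 and 1.05, and none was called. The low KO_Adult arrays, replicates 1 and 2, are those without the signal. A second Per2 probe set (1417603_at) was dim, at 12.8 ± 13.2 in WT_Aged muscle (n = 5) and 40.4 ± 28.4 in KO_Aged muscle (SD, n = 4), so its group means ran the other way. It was not called in any comparison when tested on its own.

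The inflammatory and erythroid markers of these muscles also differed by age and genotype. All 5 tested neutrophil markers were higher in WT_Aged than in WT_Adult muscle (S100a8 2.85, S100a9 3.20, Il1r2 2.06), with summed intensities of 2506 to 13393 against 533 to 1773. In that comparison 4 of 10 macrophage markers (Msr1 2.90) and 2 of 3 erythroid markers (Slc4a1 1.61) were higher too, as was Actb (1.32, adjusted p = 0.0429). Lower in WT_Aged muscle were 3 of 7 fibroblast markers (Col1a1 -4.78, Col3a1 -1.14, Col1a2 -1.28), 3 of 6 smooth muscle markers and, as given above, 6 of 12 endothelial markers. All 3 tested erythroid markers were lower in KO_Aged than in WT_Aged muscle (Slc4a1 -2.42, Hbb-b2 -4.19, Alas2 -2.30), with sums of 243 to 1206 against 3543 to 8211. Actb was also lower in KO_Aged than in WT_Aged muscle (-2.22, adjusted p = 0.00432). In the same comparison 6 of 12 endothelial markers were lower and 1 higher, 2 of 7 fibroblast markers higher, 2 of 6 smooth muscle markers lower and 1 higher, 2 of 11 skeletal muscle markers higher (the slow-fibre genes Tnnt1, 4.16, and Myh7, 3.50) and none of 10 macrophage markers called. The part of these cell types and of RNA quality in the Per1 and Per2 results was not tested. Among all tested genes 18.1% were higher and 20.8% lower in WT_Aged than in WT_Adult muscle. For KO_Aged minus WT_Aged the shares were 16.9% and 12.5%.

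Per3 (entrez 18628, 1421087_at, chr4:150997018-151044707), the family member that is least needed for the loop itself, was dim and uneven. KO_Adult muscles read 41.2, 70.5, 220, 126 and 390, against 4.87, 41.6, 79.8, 171 and 140 in WT_Adult muscles. KO_Aged muscles read 55.8, 86.5, 66.5 and 158, against 119, 81.5, 107, 93.5 and 85.2 in WT_Aged muscles. The groups overlapped in every comparison. The largest pairwise difference was 1.28 ± 0.62 for KO_Adult minus WT_Adult, with adjusted p = 0.163 and a 95% interval of -0.02 to 2.58. With array weights that comparison was called (2.99, limma adjusted p = 0.000468), as were WT_Aged minus WT_Adult (1.98, adjusted p = 0.00275) and the interaction (-3.13, adjusted p = 0.00558). A dim probe set of Per3 (1460662_at, mean 18.0) averaged 10.6 ± 6.26 in KO_Aged muscle (n = 4) against 29.4 ± 8.70 in WT_Aged muscle (SD, n = 5). In a fit of single probe sets it was lower in aged knockout muscle (-1.51 ± 0.49, limma adjusted p = 0.0423), while the third Per3 probe set was not called.

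Cry1 (entrez 12952, 1433733_a_at, chr10:85131700-85185054) encodes a cryptochrome, the partner of the Per proteins in repression. KO_Adult muscles read 310, 359, 250, 366 and 194, against 255.5, 285, 130.0, 126 and 226.5 in WT_Adult muscles. KO_Aged muscles read 148, 362, 285 and 222, against 257, 366, 332, 419 and 211 in WT_Aged muscles. The ranges overlapped in every comparison. WT_Aged minus WT_Adult was 0.78 ± 0.31 and missed the limit narrowly (adjusted p = 0.0511), and the interaction was -1.16 ± 0.45 (adjusted p = 0.0652). Without the pair of KO_Aged arrays with high Gapdh ratios both were called, at 0.78 (adjusted p = 0.034) and -1.67 (adjusted p = 0.0211).

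Dbp (entrez 13170, 1438211_s_at, chr7:45705100-45710203), a D-box activator driven directly by the Arntl and Clock proteins and a common reporter of the clock's output, was highest in aged knockout muscle. KO_Aged muscles read 410, 825, 422 and 503, against 193, 184, 329, 222 and 231 in WT_Aged muscles. KO_Adult muscles read 302, 366, 216, 296 and 396, against 324, 344, 328, 289 and 254 in WT_Adult muscles. In deposited intensity all 4 aged knockout arrays lay above all other arrays, and the adult groups overlapped. On the normalized log2 scale KO_Aged replicate 1 (8.558) lay below KO_Adult replicates 2 (8.64) and 5 (8.657). Dbp was 2.13-fold higher in KO_Aged than in WT_Aged muscle (1.09 ± 0.24, limma adjusted p = 0.00268). Its interaction was 0.92 ± 0.33 with adjusted p = 0.0492, and leaving out 1 array ended that call in 14 of 19 cases (adjusted p up to 0.113). It was kept without WT_Adult replicate 5, WT_Aged replicate 3, KO_Adult replicate 2 or 5, or KO_Aged replicate 1.

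The second Dbp probe set (1418174_at, mean 299) was nearly as bright. It averaged 441 ± 117 in KO_Aged (n = 4) and 154 ± 54.4 in WT_Aged muscle (n = 5), and 248 ± 86.9 in KO_Adult and 380 ± 89.4 in WT_Adult muscle (SD, n = 5 each). Tested on its own it was higher in KO_Aged than in WT_Aged muscle (1.42 ± 0.31, limma adjusted p = 0.0046) and lower in WT_Aged than in WT_Adult muscle (-1.22 ± 0.29, adjusted p = 0.00676). Its interaction was 1.94 ± 0.42 (adjusted p = 0.00588). The difference between the aged genotypes was thus called on both probe sets, and the fall of Dbp with age in wild-type muscle on the second alone, the first giving -0.31 ± 0.23 (adjusted p = 0.283). The second probe set read 97.0 to 320 on the 8 arrays with the poly-A signal and 243 to 604 on the 11 without it. Its fit had no poly-A term, and its calls all involve WT_Aged muscle. Without the KO_Aged arrays with high Gapdh ratios, 1 of which gave the highest value of 825, the aged genotype difference on the main probe set was 0.83 (adjusted p = 0.0417), and with the poly-A term it was 0.88 (adjusted p = 0.191). The interaction on that probe set was not called with the shared title codes as a random block (0.93, adjusted p = 0.0637), with the poly-A term (0.58, adjusted p = 0.624), without those arrays (0.66, adjusted p = 0.18) or on the arrays above the gap (0.45, adjusted p = 0.377).

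Of the activators, Arntl (entrez 11865, 1425099_a_at, chr7:113178471-113314126) passed in none of the comparisons. KO_Aged muscles read 749, 515, 755 and 627, against 697, 1124, 1334, 1134 and 1221 in WT_Aged muscles. KO_Adult muscles read 1107, 720, 567, 1218 and 417, against 1372, 907, 596, 490 and 919 in WT_Adult muscles. In aged muscle 4 of the 5 wild-type arrays lay above every knockout array, and the fifth lay within their range. The difference there was -0.73 ± 0.32 (adjusted p = 0.0953), with a 95% interval of -1.41 to -0.06. Within both adult groups Arntl varied about 3-fold from array to array.

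Clock (entrez 12753, 1418659_at, chr5:76209868-76305603) read 176, 151, 575, 586 and 499 in KO_Adult muscles, against 161, 122, 91.8, 422 and 458 in WT_Adult muscles. KO_Aged muscles read 621, 226, 245 and 710, against 470, 468, 498, 432 and 483 in WT_Aged muscles. As with Nr1d2, each group except WT_Aged held a low and a high set. Clock read 91.8 to 245 on the 7 arrays below the gap in the first component, against 422 to 710 on the 12 arrays above it. Clock was 2.40-fold higher in WT_Aged than in WT_Adult muscle (1.26 ± 0.45, limma adjusted p = 0.0328), and on the arrays above the gap that difference was 0.23 (adjusted p = 0.197). With the poly-A term it was -0.37 (adjusted p = 0.796), and with the title codes that some arrays share as a random block it was 1.28 and not called (adjusted p = 0.0602). With array weights Clock was also called higher in KO_Adult than in WT_Adult muscle (1.71, adjusted p = 0.00023). The call also ended without any one of WT_Adult replicates 1, 2 and 3 or WT_Aged replicates 1, 2, 3 and 5 (adjusted p up to 0.1). A second probe set (1418660_at) gave 0.76 ± 0.37 (adjusted p = 0.142) for the same comparison.

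Npas2 (entrez 18143, 1421037_at, chr1:39193702-39363240), which can stand in for Clock as the partner of Arntl, averaged 35.2 and was not in the main test. KO_Aged muscles read 54.3, 68.1, 88.7 and 59.3, against 26.0, 4.92, 9.24, 24.8 and 5.19 in WT_Aged muscles, and these ranges did not overlap. KO_Adult muscles read 53.8, 82.8, 33.9, 39.2 and 3.22, against 23.6, 24.4, 3.26, 27.8 and 36.4 in WT_Adult muscles. With no filter on dim genes, KO_Aged minus WT_Aged was 1.91 ± 0.55 (limma adjusted p = 0.0242). A second, dimmer probe set (1421036_at, mean 19.4) gave -0.40 ± 0.53 (adjusted p = 0.643), so the direction was not shared.

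**Figure D3:**
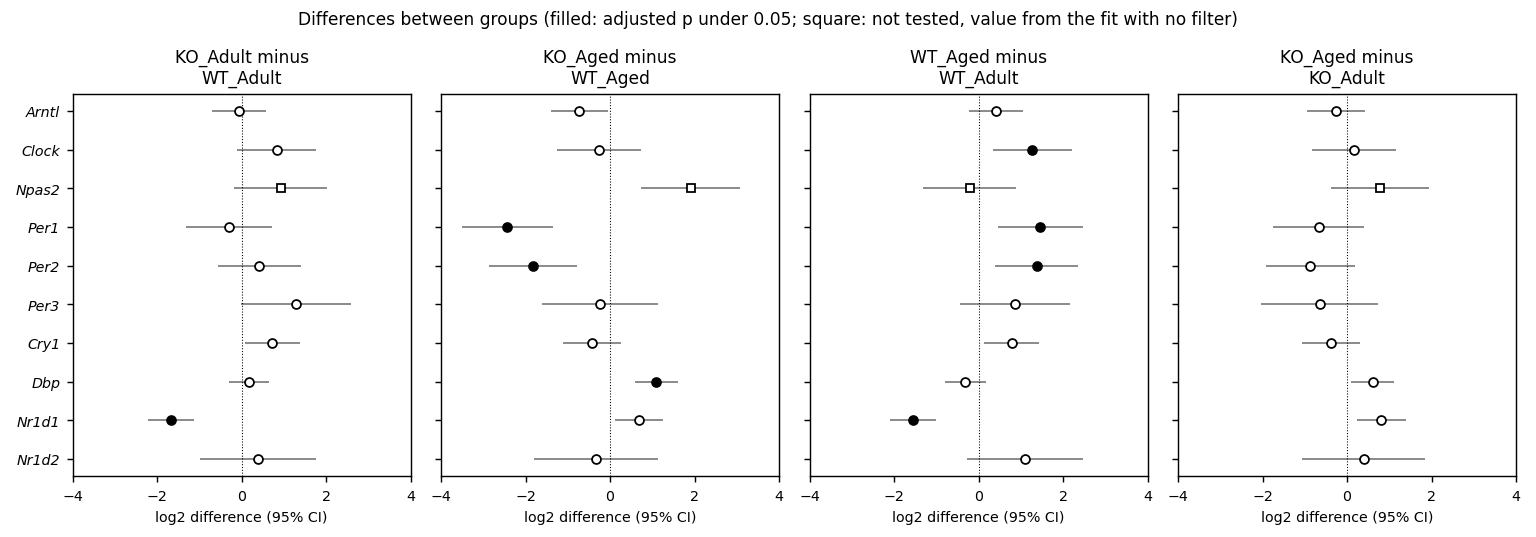
Log2 differences between groups for the 10 clock genes with 95% confidence intervals from the limma model, 1 panel per pairwise comparison. Filled marks passed the adjusted p limit of 0.05, and squares mark Npas2, taken from the fit with no filter. Nr1d1 is filled at -1.68 in the first panel, Dbp, Per1 and Per2 in the second, and Clock, Per1, Per2 and Nr1d1 in the third.

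The spread between arrays of 1 group differed greatly among the clock genes. The residual SD on the log2 scale was 1.14 for Nr1d2, 1.08 for Per3, 0.84 for Per1, 0.81 for Per2 and 0.77 for Clock, against a median of 0.36 and a 90th percentile of 0.67 over all tested genes. These 5 genes lay at percentiles 99.1, 98.7, 95.7, 95.1 and 94.1 of all tested genes. Dbp (0.37, percentile 53.2) and Nr1d1 (0.43, percentile 67.4) were close to the middle, and Cry1 (0.52) and Arntl (0.51) stood between. A gene with a large spread needs a larger difference to be called in this design, so the absence of calls for Nr1d2 and Per3 goes with wide intervals: -0.99 to 1.76 for Nr1d2 and -0.02 to 2.58 for Per3 in adult muscle.

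Part of that spread ran along the first component of the other genes. Within groups, Pearson r with the component was 0.94 for Clock and 0.93 for Nr1d2, 0.67 for Per2, 0.59 for Per1 and 0.57 for Per3, over 19 arrays. It was -0.53 for Dbp, -0.43 for Cry1, -0.32 for Nr1d1 and -0.24 for Arntl. These are descriptions, since the arrays fall into sets above and below a gap. In KO_Adult the arrays above the gap are also those with the poly-A signal, and in KO_Aged the arrays below it are those with high Gapdh ratios.

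**Figure D4:**
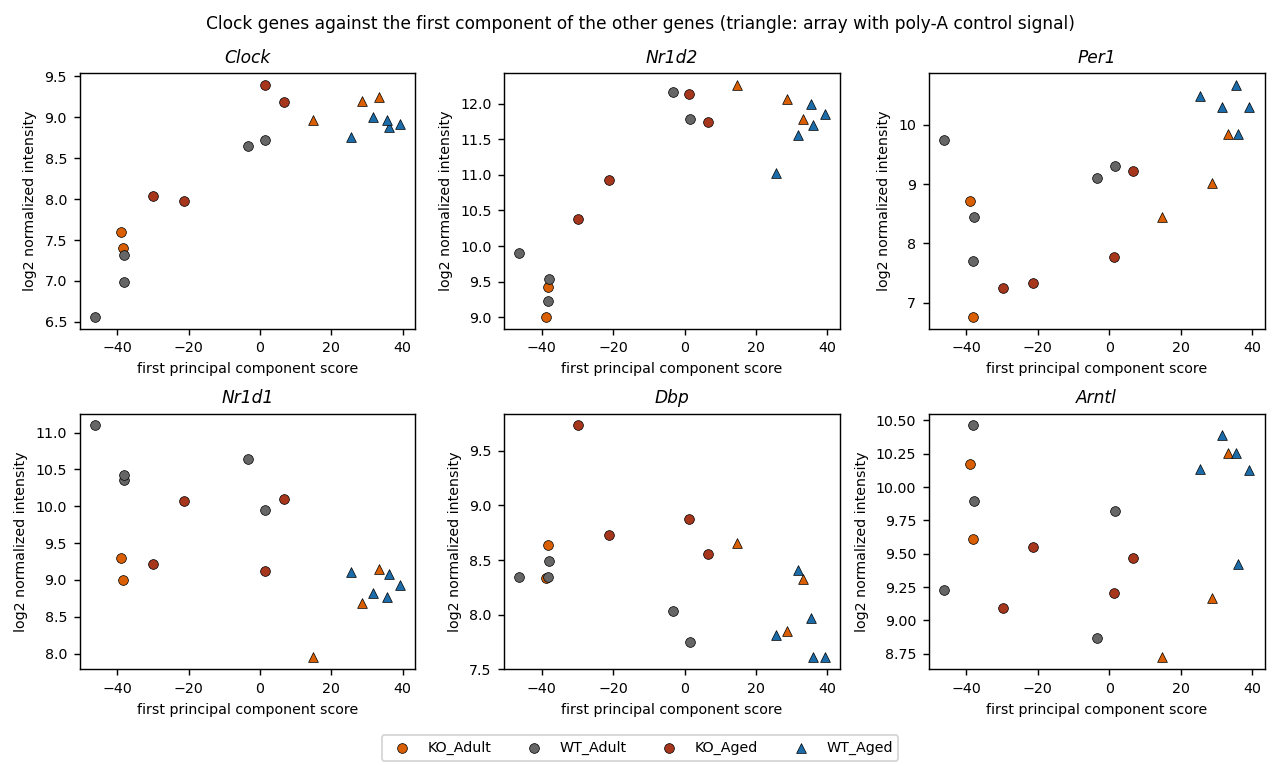
Normalized log2 level of 6 clock genes on each array (vertical axes) against the array's score on the first principal component of the other tested genes (horizontal axes), coloured by group, with triangles for arrays with the poly-A control signal. Clock and Nr1d2 climb with the score and separate at its largest gap, while Nr1d1 stays low in KO_Adult on both sides of it.

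Whether the clock genes moved together from array to array was asked with the deviations of each array from its group mean, for all 45 pairs. Of these, 4 pairs passed an adjusted permutation p of 0.05 (100000 two-sided resamples within groups). Per1 and Per2 rose and fell together, with r = 0.78 (permutation p = 0.0006, adjusted 0.027) and rho = 0.76 (p = 0.00198, adjusted 0.0445). Without the 2 arrays most distant in Per1, r was 0.71. Arntl and Per3 ran in opposite directions, with r = -0.77 (permutation p = 0.00276, adjusted 0.0414) and rho = -0.69 (p = 0.0116, adjusted 0.123). Without the 2 arrays most distant in Arntl, KO_Adult replicate 5 and WT_Adult replicate 4, r was -0.66. WT_Adult replicate 1, the lowest array in Per3 (4.87) and the highest in Arntl (1372), stayed in. Clock and Nr1d2 had r = 0.91 (permutation p = 0.00141, adjusted 0.0317) and rho = 0.90 (p = 0.00153, adjusted 0.0445). Without the 2 arrays most distant in Clock, r was 0.92. Per3 and Nr1d2 had r = 0.77 (permutation p = 0.00444, adjusted 0.0499) and rho = 0.74 (p = 0.0118, adjusted 0.123). Without the 2 arrays most distant in Per3, r was 0.71. For Arntl and the receptors that repress it, the same deviations gave r = 0.27 with Nr1d1 (permutation p = 0.347, adjusted 0.46) and r = -0.48 with Nr1d2 (permutation p = 0.116, adjusted 0.238).

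Because the arrays form sets, the pairs were taken again within them. With deviations from the mean of each group and side of the gap, r was 0.75 for Per1 and Per2 (permutation adjusted p = 0.0839) and -0.76 for Arntl and Per3 (adjusted p = 0.0513), so the sizes were close to the pooled ones though neither passed. For Per3 and Nr1d2 it was 0.53 (adjusted p = 0.23). For Clock and Nr1d2 it was -0.34 (adjusted p = 0.581), so that relation did not hold within the sets. Within group and poly-A status the r of Per1 with Per2 was 0.73 and that of Arntl with Per3 was -0.76, both with permutation adjusted p = 0.0223.

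Against all other tested genes, the r of Per1 with Per2 lay at percentile 99.7 of the r values of Per1, and that of Arntl with Per3 at percentile 0.1 of those of Arntl. For Clock the percentiles 10 and 90 of its r with every tested gene were -0.79 and 0.82, so its r of 0.91 with Nr1d2 lay at percentile 95.7 only. For Arntl they were -0.39 and 0.35.

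**Figure D5:**
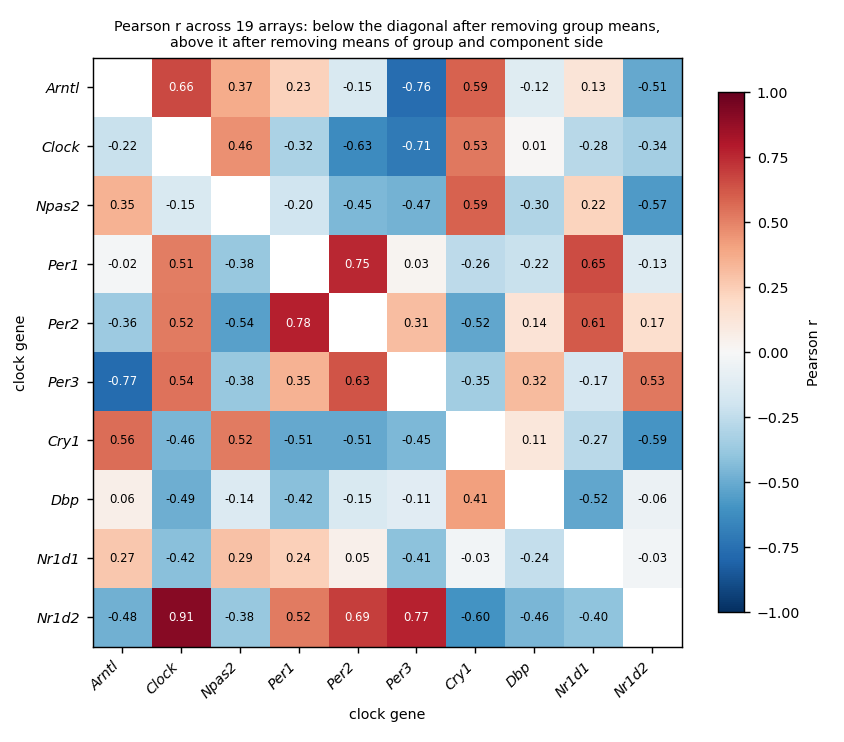
Pearson r of each pair of clock genes over the 19 arrays, with deviations from group means below the diagonal and deviations from the means of each group and side of the first component above it. Per1 with Per2 (0.78 and 0.75) and Arntl with Per3 (-0.77 and -0.76) have like values in both triangles, whereas Clock with Nr1d2 is 0.91 below and -0.34 above.

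The genes whose within-group deviations were most like those of Arntl over 19 arrays were Musk (r = 0.87), the kinase of the neuromuscular junction, Abcb1b (0.76), a drug efflux transporter, and Glul (0.74), glutamine synthetase. The most opposite were Bcl2l2 (-0.87), a survival factor of the Bcl2 family, Rcbtb1 (-0.83) and Micos10 (-0.81), a subunit of the mitochondrial cristae complex. For Dbp the most alike were Stmn1 (0.86), which destabilizes microtubules, Brcc3 (0.85), a deubiquitinase, and Reck (0.84), an inhibitor of matrix proteases. The most opposite to Dbp were Sbds (-0.86), a ribosome maturation factor, Thumpd1 (-0.83) and Akap2 (-0.81), a kinase anchor. These were picked from all tested genes by their r and carry no test.

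Other genes of the clock's machinery and output were counted from lists, in the main fit without the poly-A term. With that term 408 of all tested genes were called for KO_Aged minus WT_Aged, 7 for WT_Aged minus WT_Adult and 2 for the interaction. In the latter comparisons, at most 7 and 2 of the calls given below could hold with it. Without the high Gapdh arrays 1068 were called for KO_Aged minus WT_Aged and 1096 for the interaction. The list of clock partners holds further clock transcription factors and repressors such as Cry2, Rora and Bhlhe40, the kinases and ubiquitin ligase subunits that act on the clock proteins, and coregulators and other proteins tied to the loop. Of its 16 tested genes 3 were higher and 1 lower in KO_Adult than in WT_Adult muscle, with a median of 0.24, beside 7.32% higher and 9.37% lower among all tested genes. Those were Tipin (0.51), the casein kinases Csnk1d (0.56) and Csnk1a1 (0.50), and Btrc (-1.23), a ligase subunit that marks Per proteins for degradation. In aged muscle 3 were higher and 3 lower in the knockout (median -0.10; 16.9% and 12.5% of all tested genes), among them Btrc (1.83) and Nono (0.77) on the higher side. Fbxw11 (-0.79), a paralogue of Btrc, and Hdac3 (-0.85), the deacetylase that works with the REV-ERB receptors, were lower. For the interaction 2 were positive and 4 negative, beside 14.3% and 10.8% of all tested genes. They included Btrc (3.06, adjusted p = 0.000668) and Fbxw11 (-1.01, adjusted p = 0.0057). Between ages 5 were higher and 3 lower in wild-type muscle, beside 18.1% and 20.8% of all tested genes, including Sirt1 (2.37) and Btrc (-2.32). In knockout muscle 1 was lower with age, Hdac3 (-0.83), and none higher, beside 3.75% and 3.68%.

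Of 11 tested output genes of the PAR bZIP class and other rhythmic transcripts, 1 was higher and 4 were lower in KO_Aged than in WT_Aged muscle, with a median of -0.67 against 0.07 over all genes, beside 16.9% higher and 12.5% lower among all tested genes. Tef, a relative of Dbp that binds the same D-box, was the one that was higher (0.92, adjusted p = 0.00133). Nfil3 (-1.66, adjusted p = 0.0065), which represses through the D-box, was among the lower genes with Tsc22d3 (-1.18) and Tspan4 (-0.74). In WT_Aged against WT_Adult muscle 2 were higher and 3 lower (18.1% and 20.8% of all tested genes), with Tef at -0.94, Usp2 at -0.80, Tns2 at -0.74 and Wee1, a cell cycle kinase, at 0.97. For the interaction 2 were positive and 2 negative, beside 14.3% and 10.8% of all tested genes. Tef was at 1.0 (adjusted p = 0.00881), of the same sign as Dbp, and Wee1 at -1.21 and Tsc22d3 at -0.98. In adult muscle 1 gene, Tns2 (-0.90), was lower in the knockout and none higher, beside 9.37% and 7.32% of all tested genes. Between knockout ages none was called, beside 3.75% lower and 3.68% higher.

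Of 10 tested genes known as clock targets of muscle, Myod1, the myogenic regulator with a clock-driven enhancer, was lower in KO_Adult than in WT_Adult muscle (-1.12, adjusted p = 0.000298) and in KO_Aged than in WT_Aged muscle (-1.14, adjusted p = 0.000171). In adult muscle no other gene of that list was called, beside 9.37% lower and 7.32% higher among all tested genes. In aged muscle, beside 12.5% lower and 16.9% higher among all tested genes, 3 were lower, Myod1, Tbc1d1 (-0.88), a regulator of glucose uptake, and Fbxo32 (-1.66), a ubiquitin ligase of atrophy, and 1 was higher, the glucose transporter gene Slc2a4 (0.52). Slc2a4 was the single gene called between ages in wild-type muscle (-1.24, adjusted p = 5.52e-05), beside 20.8% lower and 18.1% higher among all tested genes. Tbc1d1 was the single gene called between ages in knockout muscle (-0.72), beside 3.75% lower and 3.68% higher.

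Genes that respond to CREB or to glucocorticoids, which can also induce Per1 and Per2, were counted from lists of immediate early and of glucocorticoid-responsive genes. The activity of CREB and of the receptor was not measured. A link between these lists and the Per1 and Per2 results was not tested. Of 13 tested immediate early genes, 4 were lower and none higher in KO_Aged than in WT_Aged muscle (Btg2 -3.31, Jun -2.35, Ier2 -1.76, Atf3 -1.66), with a median of -1.15, beside 12.5% lower and 16.9% higher among all tested genes. In WT_Aged against WT_Adult muscle 3 were higher and none lower (18.1% and 20.8% of all tested genes), Btg2 (2.00), Ier2 (1.12) and Egr1 (1.12). In adult muscle none was called between genotypes, beside 7.32% higher and 9.37% lower among all tested genes. Between knockout ages 1 was lower, Jun (-1.22), and none higher, beside 3.75% and 3.68% of all tested genes. For the interaction 4 were negative, Btg2 (-3.41), Junb (-2.13), Ier2 (-1.86) and Jun (-1.65), and none positive. The shares of all tested genes there were 10.8% and 14.3%.

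Of 19 tested glucocorticoid-responsive genes, 6 were lower and 1 higher in KO_Aged than in WT_Aged muscle, with a median of -0.30, beside 12.5% lower and 16.9% higher among all tested genes. The lower genes included Fbxo32 (-1.66), Cebpd (-1.44), Tsc22d3 (-1.18), Ddit4 (-1.14) and Glul (-1.09), and Klf15 (1.72), a regulator of amino acid use, was the higher one. In WT_Aged against WT_Adult muscle 5 were higher and 1 lower, beside 18.1% and 20.8% of all tested genes, among them Glul (0.99), the metallothioneins Mt1 (0.86) and Mt2 (0.65), and Klf15 (-1.69). In adult muscle 1 was higher in the knockout, Foxo3 (1.0), and 1 lower, Sgk1 (-0.63), beside 7.32% and 9.37% of all tested genes. Between knockout ages none was called, beside 3.68% higher and 3.75% lower. Fkbp5, a sensitive target of the receptor, was not called in any of the comparisons. It was -0.21 for KO_Aged minus WT_Aged and -0.20 for WT_Aged minus WT_Adult (limma adjusted p = 0.605 and 0.574). Between the adult genotypes it was 0.52 (adjusted p = 0.18). Between knockout ages it was -0.93 and just missed the limit (adjusted p = 0.0502). For the interaction 1 of the 19 was positive, Klf15 (2.09, adjusted p = 0.0215), and 4 were negative, beside 14.3% and 10.8% of all tested genes. The negative genes included Glul (-1.57, adjusted p = 0.00359), Cebpd (-1.34) and Tsc22d3 (-0.98), and the list median was -0.73. Tsc22d3 stands on this list and that of output genes, and Fbxo32 on this list and that of muscle targets, so the fall of each between the aged genotypes is counted under both. Pdk4 and Dusp1 also stand on 2 of these lists.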

How the data were processed

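Gene expression was measured on 19 Affymetrix arrays of mouse tibialis anterior muscle. The authors deposited linear intensity values for 22690 probe sets, which the submitters' processing notes credit to MAS5 without a version. Total RNA was labelled as biotinylated cRNA, per the labels' protocols. The platform annotation gives 1 gene symbol for 20380 probe sets, and 691 with several symbols and 1619 with none (64 control probe sets among them) were left out.

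Intensities were taken to log2 after adding 4.76 (their 10th percentile) and quantile normalized, since array medians spanned 0.63. Each gene was represented by its brightest probe set. The 7436 genes in the upper 60% of 12393 by mean level were fitted with limma 3.58.1 (R 4.3.3, lmFit and eBayes), 1 coefficient per group, with Benjamini-Hochberg adjustment over all of them. Pairs were tested with Python 3.11.15, numpy 2.4.6 and scipy 1.17.1. Both scripts were tested on simulated data. The number of arrays limits the precision.

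The clock genes, gene lists and tests were chosen with earlier results of these data known. The rule for named genes took the 10 clock genes, Des, the 4 genes of smallest p per list and comparison (3 for markers of other cell types), and the 3 genes most and least like Arntl and Dbp. Ckm, Acta1, Fkbp5 other than between knockout ages, and Klf15 and Fbxo32 as glucocorticoid-responsive genes between the aged genotypes, fall outside it. They were chosen after their values were seen. The ROR motif was narrowed to its A and G forms after looser matches had been seen. Restricting the arrays by the first component, combining the poly-A term (dap over 100) with leaving out arrays with Gapdh ratios over 3, and fitting single probe sets were added after seeing the data.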

Additional observations from a re-analysis of the deposited data

Results flagged for a closer look

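Of 40 sets of arrays, 1 per clock gene and group, 2 held an array whose gap to the nearest of the others was large for the range of its group. Chance flags about 1 set in 20, so about 2 of 40 are flagged by chance. The first is Arntl in WT_Aged replicate 1, at 697 against 1124 to 1334 on the other 4 arrays of the group. The second is Npas2 in WT_Adult replicate 3, at 3.26 against 23.6 to 36.4 on the other 4.

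For 4 clock genes the KO minus WT difference was tested to differ between aged and adult muscle. The difference of differences was 2.36 for Nr1d1, 0.92 for Dbp, -2.13 for Per1 and -2.24 for Per2. For Nr1d1 the knockout was lower in adult muscle (-1.68) and 0.68 in aged muscle, where it was not called. For Dbp, Per1 and Per2 the genotypes differed by call in aged muscle alone. These values and the limits on them are given with each gene above.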

How the results depend on the processing

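No paired analysis was possible because replicate numbers were given in accession order and pair no samples across groups. The numbers of clock genes called were 1 (KO_Adult minus WT_Adult), 3 (KO_Aged minus WT_Aged), 4 (WT_Aged minus WT_Adult), 0 (KO_Aged minus KO_Adult) and 4 (interaction). Leaving out each array in turn gave 1, 3 to 4, 2 to 5, 0, and 2 to 5 in that order. The WT_Aged minus WT_Adult count was 2 without WT_Adult replicate 1 or 2 or WT_Aged replicate 5 (Cry1 and Nr1d1) and without WT_Aged replicate 3 (Nr1d1 and Per1). The interaction count was 2 (Nr1d1 and Per2) without any one of WT_Adult replicate 1, WT_Aged 2, 4 or 5, KO_Adult 3 or 4, and KO_Aged 3 or 4. With the poly-A signal as a term the counts for the comparisons with WT_Aged muscle and for the interaction were 0, 0 and 0. Per2 changed sign to 0.23 for KO_Aged minus WT_Aged, Clock to -0.37 and Per2 to -0.68 for WT_Aged minus WT_Adult, and the interactions of Per1 to 0.05 and Per2 to 1.05. With that term and without the arrays with high Gapdh ratios the counts were 1 (Nr1d2), 0, 2 (Clock and Nr1d2, KO_Aged minus KO_Adult) and 0. The values were then 0.33 for Per2 and 3.14 for Nr1d2 (KO_Aged minus WT_Aged), -0.37 for Clock and -0.69 for Per2 (WT_Aged minus WT_Adult), and 0.66 for Per1 and 1.16 for Per2 (interaction). Without those arrays alone 1 gene (Dbp) was called for KO_Aged minus WT_Aged and 2 (Cry1 and Nr1d1) for the interaction. On the arrays without poly-A signal 0 were called for KO_Adult minus WT_Adult, and no comparison with WT_Aged was possible. On the 12 arrays above the gap the counts were 2 (Clock and Nr1d1) in adult muscle, 5 in aged muscle, where Clock was 0.38, and 2 (Per2 and Per3) between knockout ages. Each of those comparisons set arrays with the poly-A signal against arrays without it. Array weights gave 5, 7, 2 and 7 for KO_Adult minus WT_Adult, WT_Aged minus WT_Adult, KO_Aged minus KO_Adult and the interaction. A fit of the compared groups alone gave 5 in aged muscle and was not run for the interaction. No normalization gave 2 between knockout ages (Dbp and Nr1d1), no filter gave 2 for the interaction, and an adjusted p under 0.01 gave 1 (Nr1d1) for WT_Aged minus WT_Adult and 1 (Nr1d1) for the interaction. The causes of these shifts were not tested.

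Over all tested genes the counts were 1241, 2190, 2891, 553 and 1864 in the order above. Without WT_Adult replicate 3 the first was 741, and without KO_Aged replicate 3 or KO_Adult replicate 4 or 5 the fourth was between 193 and 367. With the poly-A term they were 496, 408 and 7 for the first 3 and 2 for the interaction, and with the term and without the high Gapdh arrays 586, 547, 5, 942 and 0. Without those arrays alone they were 1068 for KO_Aged minus WT_Aged, 116 between knockout ages and 1096 for the interaction. Array weights gave 3802, 4627, 1268 and 3935 (not KO_Aged minus WT_Aged), and an adjusted p under 0.01 gave 504, 1150, 1510, 114 and 804. On the arrays without poly-A signal 106 and 5 genes were called for KO_Adult minus WT_Adult and KO_Aged minus KO_Adult, in the compared groups alone 624 and 51, and on the arrays above the gap 1981 and 996. The title codes as a random block gave 652 for KO_Adult minus WT_Adult, and no filter gave 357 between knockout ages. The number of called pairs, 4, became 0 with the mean of all probe sets, 2 without the high Gapdh arrays, 2 with Spearman's rho, 2 within group and poly-A status and 0 within group and side of the gap, where Clock with Nr1d2 was -0.34.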
